A study of Mus musculus with 54 samples.

Results

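Genes that report on FGF-ERK signalling were followed through mouse cells at 3 stages: Etv1, Etv4, Etv5, Spry1, Spry2, Spry4, Spred1, Dusp4 and Dusp6. They were chosen by name and are 9 of the 20036 genes in the expression table. Messenger RNA was sequenced from embryonic stem cells (ESC), from epiblast-like cells (EpiLC), and from cells at day 2 of differentiation towards primordial germ cells (d2 PGCLC, primordial germ cell-like cells). Each stage holds 9 lines with 2 libraries each, 54 libraries in 27 groups, all of strain C57BL/6 X 129/SvJ. The lines are wild type (WT), mutants of 1 gene each (Ovol1KO, Ovol2KO, Ovol3KO), a line titled TKO, and 4 lines labelled as overexpressing: Cdh1-Tg, Ovol2a/2b-Tg, Ovol2b-Tg and Ovol2a-Tg. Cdh1 is the gene of E-cadherin, and the Ovol proteins are transcription factors with zinc fingers. The genotype behind TKO is not spelled out, and neither the cells that received the transgenes nor their promoters, nor whether a line is 1 clone, are given in the sources used here. The agents of each culture step are likewise not given there.

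Fibroblast growth factors bind receptor tyrosine kinases and, through RAS and RAF, lead to phosphorylation of the kinases ERK1 and ERK2. Active ERK induces a group of genes that feed back on it. Etv1, Etv4 and Etv5 are the PEA3 transcription factors of the ETS family and act downstream of FGF. Spry1, Spry2, Spry4 (Sprouty) and Spred1 encode inhibitors that act between receptor and RAF, and Dusp4 and Dusp6 encode phosphatases that remove phosphate from ERK. FGF-ERK activity drives mouse ESC out of the naive state, and the same pathway is used again in the primitive streak.

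RefSeq promoter windows (GRCm38.p6) matched 6 of the 9 genes, with 8 windows in all, and the 250 bases before each start were searched on both strands. Stretches of 4 genes are shown because their stage patterns in WT differed: Dusp6 was called higher at both steps, Spry1 higher and then lower, Spry2 and Etv5 at neither. Capitals mark GGAA, the core of sites bound by ETS factors such as Etv1, Etv4 and Etv5, or CCGTTA, a core reported for OVOL factors, on either strand. The stretches are chr10:99262981-99263230 (plus strand) for Dusp6, chr3:37639697-37639946 (plus) for Spry1, chr14:105896820-105897069 (minus) for Spry2, and chr16:22439720-22439820 (minus) for Etv5, which leaves out bases that lie inside the annotated gene.
Dusp6: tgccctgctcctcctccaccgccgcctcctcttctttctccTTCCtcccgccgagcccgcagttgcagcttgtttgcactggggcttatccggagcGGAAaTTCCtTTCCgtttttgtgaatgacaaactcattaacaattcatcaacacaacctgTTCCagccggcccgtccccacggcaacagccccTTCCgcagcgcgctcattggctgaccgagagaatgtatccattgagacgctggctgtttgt
Spry1: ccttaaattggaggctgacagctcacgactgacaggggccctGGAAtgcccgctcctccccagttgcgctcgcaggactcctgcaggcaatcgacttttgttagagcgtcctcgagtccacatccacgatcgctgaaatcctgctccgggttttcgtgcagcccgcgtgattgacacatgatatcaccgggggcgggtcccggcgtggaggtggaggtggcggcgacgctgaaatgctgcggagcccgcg
Spry2: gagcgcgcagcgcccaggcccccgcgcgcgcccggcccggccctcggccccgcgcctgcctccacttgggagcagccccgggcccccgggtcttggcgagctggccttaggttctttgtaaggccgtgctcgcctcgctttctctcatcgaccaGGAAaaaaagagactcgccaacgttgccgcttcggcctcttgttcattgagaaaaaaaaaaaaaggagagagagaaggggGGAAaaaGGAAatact
Etv5: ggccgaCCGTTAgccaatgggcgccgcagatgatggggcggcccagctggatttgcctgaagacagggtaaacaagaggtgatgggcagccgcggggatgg
GGAA occurred 6 times before the start of Dusp6, 3 times before Spry2 and once before Spry1, and not in the first of the 2 Etv5 windows. Of 32851 mouse windows of 250 bases, 93.4% held at least 1 GGAA and 8.69% held as many as Dusp6. CCGTTA was present in 2.18% of all windows and, among the 8 windows used for these genes, in the first of Etv5. The E-box CAGGTG, present in 17.2% of all windows, was in none of the 8. A match is a string of letters and no binding was measured.

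These 9 genes lie on 9 chromosomes of mm10 (GRCm38), so none neighbours another. Each is annotated as protein coding. The PEA3 factors are Etv1 at chr12:38779380-38870484, Etv4 at chr11:101769742-101785371 and Etv5 at chr16:22381309-22439719. The inhibitors are Spry1 at chr3:37639947-37644598, Spry2 at chr14:105891947-105896819, Spry4 at chr18:38586247-38601415 and Spred1 at chr2:117121374-117182279. The phosphatases are Dusp4 at chr8:34807297-34819894 and Dusp6 at chr10:99263231-99267489.

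Levels are TPM, which scale each gene's reads by its length and each library to the same total. Library depth, recovered from the TPM values as whole reads, was 2.16 to 26.71 M (median 8.65 M). The stage labels matched their markers in part: 5 ESC markers (Klf4, Tfcp2l1, Zfp42, Esrrb, Tbx3) summed to 758.8 to 1289 TPM in ESC and 19.9 to 156.7 in EpiLC, and 4 EpiLC markers (Fgf5, Pou3f1, Otx2, Dnmt3b) summed to 1123 to 2447 TPM in EpiLC and 74.9 to 386.0 elsewhere. In d2 PGCLC, 5 germ cell markers (Prdm1, Prdm14, Tfap2c, Dppa3, Nanos3) summed to 36.9 to 337.9 TPM, against 1.41 to 35.6 in EpiLC and 205.6 to 420.0 in ESC. The 8 streak and mesoderm markers reached 106.3 to 2634 TPM in d2 PGCLC. No marker was at 0 throughout a stage. The targeted genes do not check the knockout labels, since their RNA was still present: Ovol2 was 4.74 to 34.6 TPM in the 6 Ovol2KO libraries and 4.98 to 12.7 in WT, Ovol3 was 5.66 to 11.3 in Ovol3KO and 6.47 to 13.0 in WT, and Ovol1 was 0 to 1.35 in Ovol1KO and 0.325 to 1.02 in WT. In TKO libraries Ovol2 was 0.835 to 11.2 TPM. Ovol2 was 69.9 to 4161 TPM in the 3 Ovol2 transgenic lines, and Cdh1 was 561.9 to 701.4 TPM in Cdh1-Tg against 311.6 to 468.0 in WT. In bulk samples a change in the share of a cell type and a change of RNA per cell cannot be told apart.

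**Figure D1:**
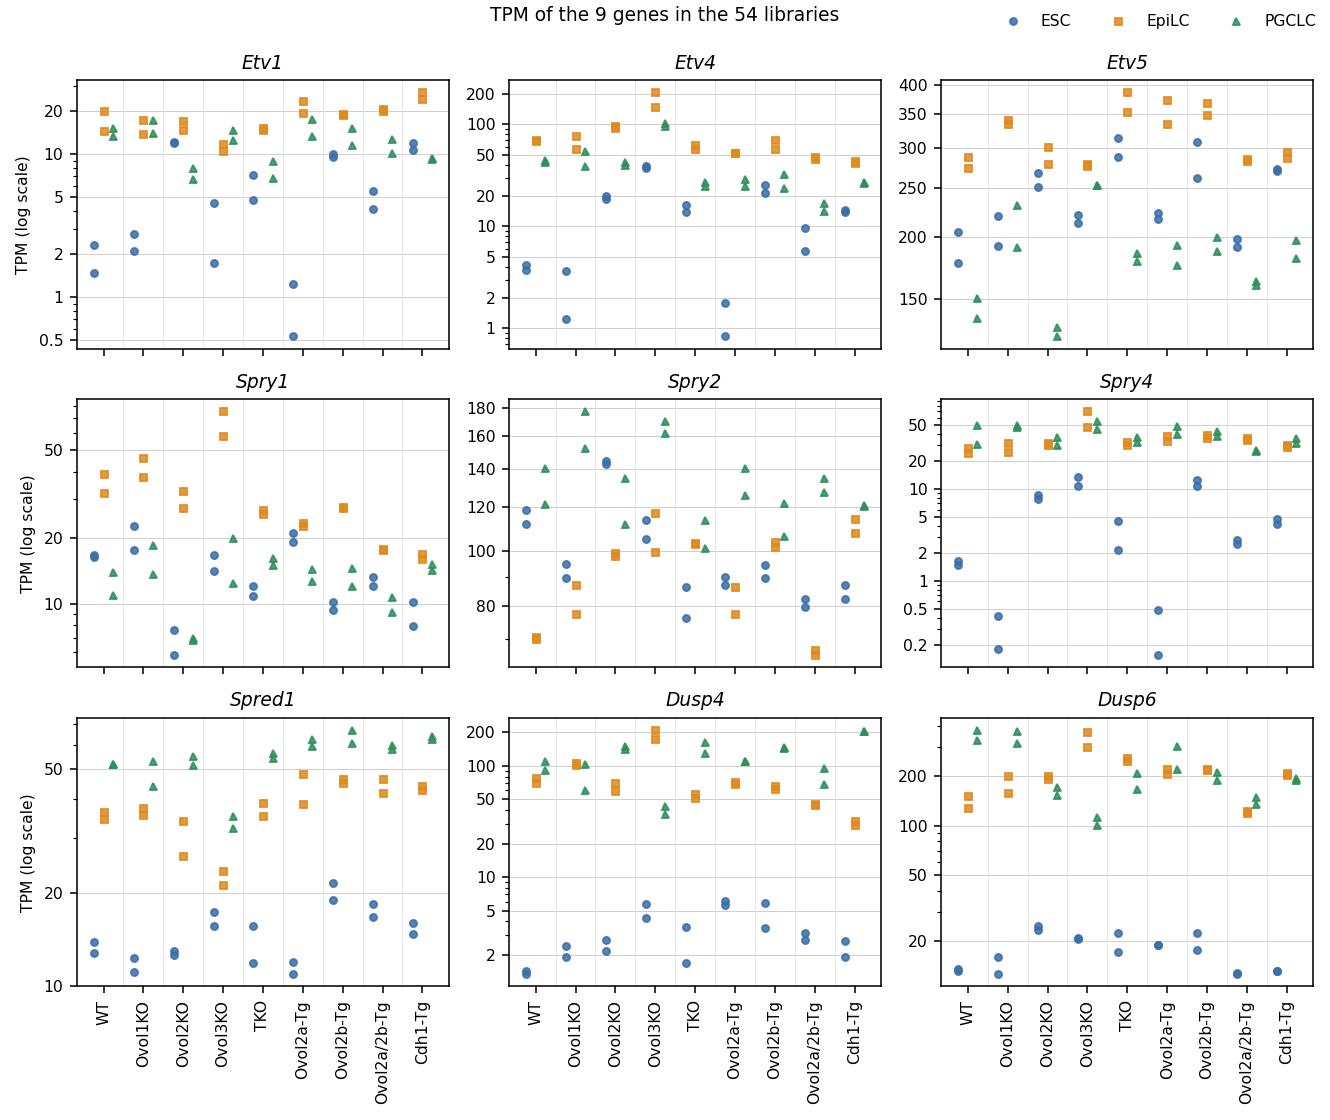
TPM (log axis) of each gene in all 54 libraries, 1 point per library, by line (x axis) and stage (colour and marker shape). Dusp4 and Dusp6 in ESC lie below every EpiLC and PGCLC library of the same gene, while Etv5 and Spry2 span a narrow range at all 3 stages.

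In WT, most of these genes were higher in EpiLC than in ESC. From ESC to EpiLC 7 of the 9 were called higher and 0 lower, where 9.33% of the 14416 genes tested were called higher; a call means a limma Benjamini-Hochberg adjusted p under 0.05 over all genes tested and a change of at least 1 on the log2(TPM + 1) scale. The median log2 fold change of the 9 was 2.64, and that of all genes -0.01. From EpiLC to d2 PGCLC 1 was called higher (13.5% of all genes) and 1 lower (7.62%). Between ESC and PGCLC 6 were called higher (14.5% of all genes). The 3 comparisons share their libraries in pairs.

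The PEA3 factors parted in WT. Etv4 was 3.72 and 4.16 TPM in the 2 ESC libraries, 69.1 and 71.0 in EpiLC, and 44.5 and 42.7 in PGCLC. The stages do not overlap, and the highest was EpiLC. Etv4 rose by 3.85 ± 0.22 (log2 ± SE, limma adjusted p = 6.37e-17) into EpiLC, and its difference of -0.67 ± 0.22 between EpiLC and PGCLC was below the size required for a call. Etv1 was 2.32 and 1.48 TPM in ESC, 19.9 and 14.4 in EpiLC, and 15.2 and 13.3 in PGCLC. Etv1 rose by 2.64 ± 0.23 (limma adjusted p = 3.06e-12) from ESC, and EpiLC and PGCLC libraries overlapped. Etv5 was already abundant in ESC, at 204.6 and 177.5 TPM, against 274.2 and 287.7 in EpiLC and 138.0 and 151.3 in PGCLC. Its difference was 0.56 ± 0.08 into EpiLC and -0.95 ± 0.08 from EpiLC to PGCLC, neither large enough to be called, although the stages did not overlap. In the count model limma-voom the second difference was -1.02 and was called.

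Among the 4 inhibitors Spry4 and Spred1 shared a course in WT, while Spry1 and Spry2 each had another. Spry4 was 1.5 and 1.66 TPM in ESC, 25.0 and 28.0 in EpiLC and 49.3 and 31.3 in PGCLC, an increase of 3.41 ± 0.19 (limma adjusted p = 2.61e-17) at the first step and an uncalled difference of 0.55 ± 0.19 at the next, with no overlap between stages. Spred1 was 12.8 and 13.8, then 36.5 and 34.6, then 51.8 and 52.0 TPM, and its stages did not overlap either. It rose by 1.35 ± 0.12 (limma adjusted p = 2.01e-12) into EpiLC and differed by 0.53 ± 0.12 at the next step. Spry1 was 16.3 and 16.7 TPM in ESC, 32.0 and 39.1 in EpiLC and 13.9 and 11.0 in PGCLC. It peaked in EpiLC, with an increase of 1.06 ± 0.17 (limma adjusted p = 2.01e-06) and then a change of -1.45 ± 0.17 (limma adjusted p = 4.22e-09). Without the second WT EpiLC library the first of these changes was 0.92 and was not called. Spry2 ran the other way, with 111.7 and 118.5 TPM in ESC, 70.4 and 70.0 in EpiLC and 140.9 and 121.3 in PGCLC, and its differences of -0.70 ± 0.09 and 0.89 ± 0.09 were not called.

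In WT both phosphatases had larger log2 differences between ESC and PGCLC than the other members, 5.40 ± 0.20 for Dusp4 and 4.64 ± 0.14 for Dusp6. Dusp4 went from 1.34 and 1.43 TPM in ESC to 69.4 and 78.4 in EpiLC and 109.2 and 91.4 in PGCLC. It rose by 4.97 ± 0.20 (limma adjusted p = 3.20e-21) into EpiLC. Dusp6 went from 13.0 and 13.4 to 128.0 and 150.8 and then to 379.2 and 329.8 TPM. Dusp6 was the 1 gene of the 9 that was called higher at both steps, by 3.30 ± 0.14 (limma adjusted p = 5.42e-21) and 1.34 ± 0.14 (limma adjusted p = 1.83e-10). In ESC, Dusp4 rested on 5 to 153 reads per library.

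Upstream of these genes, the FGF ligands exchanged between stages. Of 8 ligand genes tested, 2 were called higher (9.33% of all genes) and 3 lower (11.2%) in WT EpiLC than in ESC. In WT PGCLC 5 were higher (13.5%) and 3 lower (7.62%) than in EpiLC. The same shares of all genes hold for the other lists at these steps. Fgf5, a marker of the primed epiblast, rose by 6.11 ± 0.27 into EpiLC and changed by -2.99 ± 0.27 from EpiLC to PGCLC. Fgf4, the ligand that acts on ESC, was 245.0 and 227.8 TPM in ESC, 144.3 and 147.5 in EpiLC and 14.0 and 13.4 in PGCLC. Fgf8, which is expressed in the primitive streak, was 1.37 and 0.527 TPM in ESC, 0.442 and 1.0 in EpiLC, and 185.2 and 253.2 in PGCLC. Of 5 receptor genes 2 were higher at the second step, Fgfr3 by 1.42 ± 0.23 and Fgfr1 by 1.36 ± 0.09. Of the cascade from adaptor to kinase, the adaptor Gab1 differed by -2.22 ± 0.10 at the second step.

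Other genes of the same feedback class were counted beside the members. Of 14 tested, 5 were called higher and 2 lower in EpiLC, led by the ERK phosphatase Dusp9 (3.73 ± 0.13), Spred3 (2.61 ± 0.26) and Dusp2 (2.20 ± 0.21), while Dusp1 changed by -1.43 ± 0.22. From EpiLC to PGCLC 4 were higher and 0 lower, among them Dusp5 (2.45 ± 0.31) and Il17rd (1.60 ± 0.14). Of 18 further ERK-responsive genes 3 were higher and 5 lower in EpiLC, with the immediate early gene Fos at -4.52 ± 0.34 and Myc at 3.89 ± 0.19. At the second step 9 were higher and 1 lower, with T (Brachyury) at 9.71 ± 0.26 and Fos at 7.85 ± 0.34. T is also a streak marker, and the streak and mesoderm markers summed to 5.02 and 5.98 TPM in WT EpiLC and 1842 and 1910 in WT PGCLC. Their part in the PGCLC values was not tested.

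The step from ESC to EpiLC had the same direction in every line for 8 of the 9 genes. Both EpiLC libraries lay above both ESC libraries in 9 of 9 lines for each gene except Spry2, which was higher in 3 lines and lower in 5. Of all 14416 genes tested, 15.7% were higher in EpiLC in this way in 9 of 9 lines and 13.5% lower. The ratio of mean TPM had a median over lines of 20.2 for Dusp4, 11.4 for Dusp6, 9.37 for Spry4, 4.86 for Etv4 and 1.28 for Etv5. At the next step Etv4, Etv5 and Spry1 were lower in PGCLC than in EpiLC in 9 of 9 lines and Spred1 was higher in 9 of 9, as were 10.2% (lower) and 16.9% (higher) of all genes. Dusp4 was higher in 7 lines and lower in 1, Ovol3KO. Dusp6 was higher in 3 lines and lower in 5, so the increase seen in WT was not shared by most lines. The level over all 27 groups was highest for Etv4 in Ovol3KO EpiLC (mean 177.9 TPM) and lowest in Ovol2a-Tg ESC (1.29), for Dusp4 highest in Cdh1-Tg PGCLC (205.1) and lowest in WT ESC (1.39), and for Dusp6 highest in WT PGCLC (354.5) and lowest in Ovol2a/2b-Tg ESC (12.6). With the groups in order of their mean, 14 of the 26 neighbouring pairs overlapped for Etv4, 16 for Dusp4, 18 each for Spry2 and Dusp6, 19 each for Etv5 and Spry1, 20 each for Etv1 and Spry4 and 21 for Spred1.

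**Figure D2:**
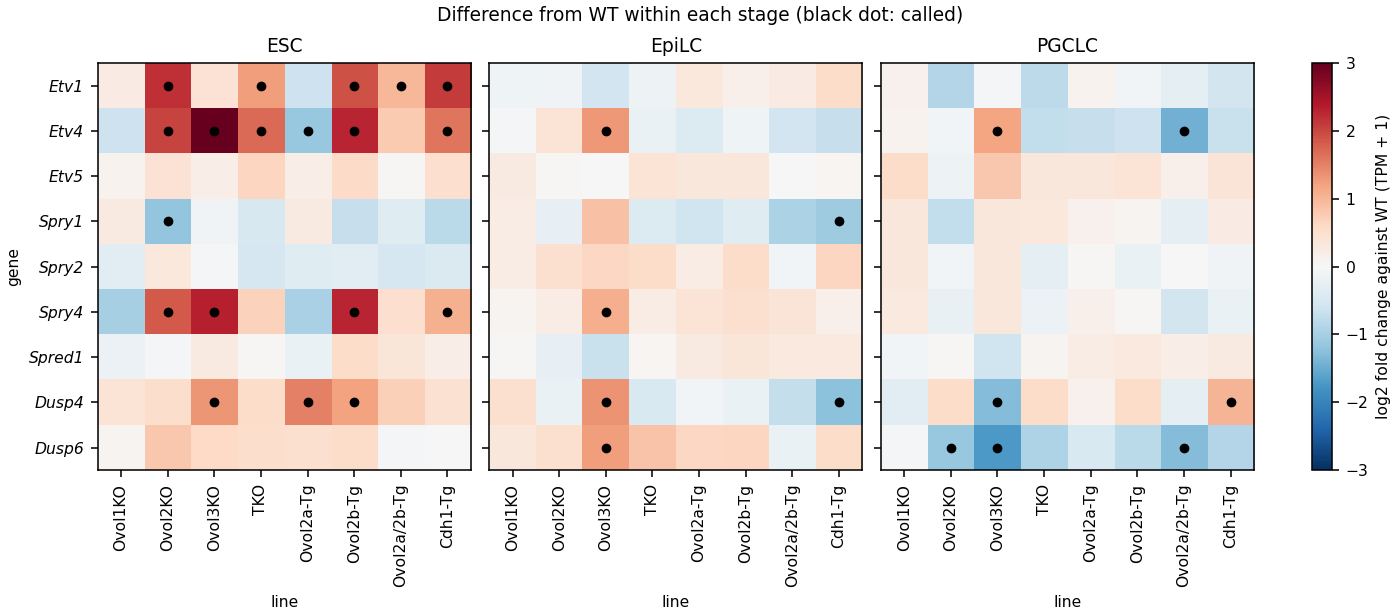
Log2 fold change (TPM + 1) of each gene in each line against WT of the same stage, with a black dot where the change was called. In ESC the calls gather in Etv1, Etv4 and Spry4, in EpiLC in Ovol3KO, and in PGCLC 3 of 7 are decreases of Dusp6. The PGCLC comparisons called 0.666% (Ovol1KO) to 12.8% (Ovol3KO) of all genes in either direction.

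In ESC, 19 of 72 differences from WT were called, most of them increases of Etv1, Etv4 and Spry4. Each of these genes was scarce in WT ESC. Etv4 was called higher in 5 lines: 38.8 and 37.3 TPM in Ovol3KO, 21.0 and 25.2 in Ovol2b-Tg, 18.6 and 19.9 in Ovol2KO, 16.3 and 13.9 in TKO and 13.7 and 14.5 in Cdh1-Tg, all above the WT values of 3.72 and 4.16. The increases ran from 1.61 ± 0.29 in Cdh1-Tg to 2.98 ± 0.29 in Ovol3KO (limma adjusted p = 1.68e-05). Spry4 was called higher in 4 of these 5 lines, with 13.6 and 10.7 TPM in Ovol3KO, 12.5 and 10.8 in Ovol2b-Tg, 7.90 and 8.54 in Ovol2KO and 4.68 and 4.13 in Cdh1-Tg, against 1.5 and 1.66 in WT. The increases were 2.34, 2.29, 1.84 and 1.06, each ± 0.24, and the last was 0.99 without the first Cdh1-Tg library. In TKO, Spry4 was 4.48 and 2.20 TPM and was called, at 1.31, by limma-voom alone.

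Etv1 differed from Etv4 by line. It was 12.2 and 11.9 TPM in Ovol2KO, 11.9 and 10.6 in Cdh1-Tg and 9.82 ± 0.325 (mean ± SD, n = 2) in Ovol2b-Tg, increases over WT of 2.19, 2.09 and 1.91, each ± 0.30. In Ovol3KO, where Etv4 had its highest ESC level, Etv1 was 4.56 and 1.74 TPM, which overlaps WT. The increase in TKO was 1.25 ± 0.30 (limma adjusted p = 0.00915) and was lost without the second WT library (adjusted p = 0.0710) or the first TKO library (adjusted p = 0.0693). In Ovol2a/2b-Tg it was 1.0 ± 0.30 (limma adjusted p = 0.0280). That call was lost without the second WT library (0.79), without the first Ovol2a/2b-Tg library (0.83) or without the second (adjusted p = 0.0645).

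Only 2 of the 19 ESC calls were decreases, Spry1 in Ovol2KO and Etv4 in Ovol2a-Tg. Without the size required decreases were more frequent, 11 of the 39 ESC differences with a limma adjusted p under 0.05, among them Spry2 in 5 lines (from -0.50 in TKO to -0.32 in Ovol2b-Tg) and Spry1 in 3. Spry1 fell in Ovol2KO to 5.82 and 7.60 TPM from 16.3 and 16.7 (-1.19 ± 0.17, limma adjusted p = 2.42e-04), while Etv1, Etv4 and Spry4 were higher in the same libraries. Etv4 fell in Ovol2a-Tg to 0.832 and 1.75 TPM (-1.14 ± 0.29, limma adjusted p = 0.00908), and without its first library the change was -0.84 (adjusted p = 0.127). Spry4 in Ovol2a-Tg was 0.156 and 0.485 TPM, 7 and 25 reads, and its difference of -0.98 ± 0.24 passed the size required with a pseudocount of 0.1 (-2.12), with quantile scaling (-1.02) and in limma-voom (-2.35). Limma-voom also called Etv1 in the same line, at -1.17. Dusp4 was higher in Ovol2a-Tg (6.03 and 5.61 TPM, 1.51 ± 0.26), Ovol3KO (4.26 and 5.71, 1.32 ± 0.26) and Ovol2b-Tg (5.83 and 3.49, 1.21 ± 0.26), against 1.34 and 1.43 in WT. Without the first Ovol2b-Tg library the last was 0.91. In Ovol3KO the 730 genes of chromosome 8, which carries Dusp4, had a median of 0.45 against 0.02 for all genes. Etv5, Spry2, Spred1 and Dusp6 were called in no ESC line by limma or limma-voom, although all 9 genes had an adjusted p under 0.05 in Ovol2b-Tg (24.0% of all genes) and 7 of 9 in Ovol2KO (15.8%). In Ovol2b-Tg 2 of the 9 were lower than WT, Spry1 (-0.70 ± 0.17) and Spry2 (-0.32 ± 0.08).

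The members' counts stand against these shares of all 14416 genes in ESC. In Ovol2KO 3 were higher (0.770% of all genes) and 1 lower (2.59%), in Ovol3KO 3 were higher (0.652%), and in TKO 2 were higher (1.60%). In Ovol2a-Tg 1 was higher (2.50%) and 1 lower (2.46%). In Ovol2b-Tg 4 were higher (1.73%), in Ovol2a/2b-Tg 1 (1.48%) and in Cdh1-Tg 3 (2.00%). Ovol1KO had 0 calls in ESC (0.541% of all genes in either direction), in EpiLC (0.486%) and in PGCLC (0.666%). Of its 27 differences 9 had an unadjusted limma p under 0.05, 4 an adjusted one, and limma-voom called 0, while a pseudocount of 0.1 called Spry4 in ESC (0.184 and 0.422 TPM, 2 reads each, -2.13). All 8 lines are compared with the same 2 WT libraries.

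The EpiLC markers were also higher in some of these ESC libraries. They summed to 97.8 and 97.0 TPM in WT ESC, 137.8 and 144.2 in Ovol2KO, 151.7 and 140.6 in Ovol2b-Tg, 205.2 and 168.6 in TKO and 336.2 and 328.5 in Cdh1-Tg, but to 88.4 and 90.0 in Ovol3KO. The part of the EpiLC markers in the members' values was not tested in any of these lines. In Ovol2KO the 1 call over the 5 lists of ligands, receptors, cascade, other feedback and other ERK-responsive genes was Myc, higher by 1.65 ± 0.24. In Cdh1-Tg 4 of the 18 ERK-responsive genes were lower (4.39% of all genes), with Egr1 at -4.42 ± 0.22 and Fos at -4.08 ± 0.23. Of the feedback genes Dusp1 was at -2.52 ± 0.09, while Etv1, Etv4 and Spry4 were higher.

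In EpiLC, 6 of 72 differences were called, and 4 of them were increases in Ovol3KO (1.73% of all genes called higher). Etv4 was 206.0 and 149.8 TPM against 69.1 and 71.0 in WT, an increase of 1.31 ± 0.14 (limma adjusted p = 7.44e-06). Dusp4 was 208.3 and 173.0 against 69.4 and 78.4 (1.35 ± 0.10, limma adjusted p = 3.26e-07). Dusp6 was 371.4 and 299.9 against 128.0 and 150.8 (1.26 ± 0.10, limma adjusted p = 1.05e-06). Spry4 was 70.2 and 47.7 against 25.0 and 28.0 (1.10 ± 0.14), and 0.83 without the first Ovol3KO library. No library of the 2 groups overlapped for these 4 genes. Spry1, at 75.3 and 58.3 against 32.0 and 39.1 TPM, differed by 0.88 ± 0.13 and Spred1, at 23.4 and 21.1 against 36.5 and 34.6, by -0.66 ± 0.12, both below the size required. The genes of chromosome 8 had a median of 0.40 in this comparison, against -0.00 for all genes.

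The ligands and receptors of Ovol3KO EpiLC gave few calls beside these. Fgf5 was 29.8 and 42.9 TPM against 79.9 and 75.2 (-1.09 ± 0.11), and Fgfr4 was higher by 1.08 ± 0.22. Among ERK-responsive genes Fos (1.55 ± 0.30) and Phlda1 (1.15 ± 0.22) were higher, and of the feedback genes Spred3 was lower (-1.14 ± 0.21). The EpiLC markers, which include Fgf5, summed to 1123 and 1213 TPM in Ovol3KO and 1582 and 1644 in WT, and the ESC markers to 156.7 and 112.7 against 53.7 and 53.9. The part of either in the Ovol3KO values was not tested.

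Cdh1-Tg EpiLC had 2 members lower (2.76% of all genes). Dusp4 was 32.1 and 29.4 TPM (-1.24 ± 0.10, limma adjusted p = 1.34e-07) and Spry1 16.8 and 16.0 (-1.07 ± 0.13, limma adjusted p = 1.01e-05), the latter -0.93 without the second WT library. The EpiLC markers summed to 2392 and 2447 TPM in these libraries and 1582 and 1644 in WT, and the ESC markers to 24.3 and 19.9 against 53.7 and 53.9; their part in these values was not tested. The remaining 6 lines had 0 calls by limma in EpiLC, where in either direction 0.486% of all genes were called in Ovol1KO, 1.42% in Ovol2KO, 2.30% in TKO, 4.50% in Ovol2a/2b-Tg, 1.67% in Ovol2b-Tg and 2.06% in Ovol2a-Tg. Of these 54 differences 30 had an unadjusted limma p under 0.05 and 21 an adjusted one. By line, 3.24% (Ovol1KO) to 38.1% (Ovol2a/2b-Tg) of all genes had such an adjusted p. Limma-voom called 1, Spry1 in Ovol2a/2b-Tg (-1.13). The ESC increases of Etv1, Etv4 and Spry4 in Ovol2KO were followed by uncalled differences in EpiLC: Etv1 was 17.0 and 14.6 TPM, Etv4 95.5 and 91.4 and Spry4 30.3 and 32.1. Whether the effect differed between ESC and EpiLC was not tested.

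In d2 PGCLC, 7 of 72 differences were called, and Dusp6 accounted for 3 of them. By line, 0.666% (Ovol1KO) to 12.8% (Ovol3KO) of all genes were called in either direction in the same comparisons. WT had 379.2 and 329.8 TPM of Dusp6. Ovol2KO had 152.3 and 170.4 (-1.13 ± 0.14, limma adjusted p = 3.97e-05), Ovol3KO 113.1 and 100.3 (-1.72 ± 0.14, limma adjusted p = 3.23e-07) and Ovol2a/2b-Tg 149.7 and 135.9 (-1.30 ± 0.14, limma adjusted p = 8.55e-06). TKO had 207.9 and 167.9 TPM, a difference of -0.92 ± 0.14 (limma adjusted p = 1.64e-04) that missed the size required and reached it in limma-voom (-1.02) and without the first TKO library (-1.07). Ovol2a-Tg (305.8 and 219.5), Ovol2b-Tg (189.6 and 212.8) and Cdh1-Tg (194.1 and 188.0) also lay below both WT libraries, uncalled, and Ovol1KO (315.9 and 376.9) overlapped WT.

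The other ERK phosphatase did not follow Dusp6 in every line. Dusp4 fell in Ovol3KO to 43.5 and 37.2 TPM from 109.2 and 91.4 (-1.29 ± 0.20, limma adjusted p = 1.14e-04), while the genes of its chromosome 8 had a median of 0.28 against -0.12 for all genes. In Ovol2KO, where Dusp6 fell, Dusp4 was 141.9 and 150.4 TPM and in TKO 162.4 and 130.7, all above WT and uncalled. In Cdh1-Tg it was 203.4 and 206.7 TPM (1.03 ± 0.20, limma adjusted p = 9.81e-04). That value was just under the size required with quantile scaling, 0.96 in limma-voom and 0.90 without the second WT library. Etv4 was higher in Ovol3KO, at 103.5 and 96.8 TPM against 44.5 and 42.7 (1.18 ± 0.16, limma adjusted p = 2.17e-05), and lower in Ovol2a/2b-Tg, at 17.1 and 14.0 (-1.44 ± 0.16, limma adjusted p = 6.57e-06). Ovol3KO PGCLC thus held a higher Etv4 beside lower Dusp4 and Dusp6. Etv5, at 252.9 and 252.7 against 138.0 and 151.3 TPM, differed by 0.80 ± 0.08 and Spry1, Spry2 and Spry4 were not called against WT in any line in PGCLC.

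These counts compare with the whole table as follows. In Ovol2KO 1 member was lower (4.07% of all genes), in Ovol3KO 1 was higher (4.34%) and 2 lower (8.50%), in Ovol2a/2b-Tg 2 were lower (2.95%) and in Cdh1-Tg 1 was higher (5.56%). The other 4 lines had 0 calls by limma, in comparisons that called 0.666% of all genes in either direction in Ovol1KO, 10.5% in TKO, 3.43% in Ovol2a-Tg and 8.30% in Ovol2b-Tg. Of those 36 differences 17 had an unadjusted limma p under 0.05 and 14 an adjusted one, 6 of them in TKO. By line, 2.66% (Ovol1KO) to 35.3% (TKO) of all genes had such an adjusted p. Limma-voom called 1, Dusp6 in TKO.

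Markers of other cell types differed between the same PGCLC libraries. The streak and mesoderm markers summed to 1910 and 1842 TPM in WT, 220.9 and 106.3 in Ovol3KO, 2354 and 2634 in Ovol2KO and 2551 and 2535 in TKO. In Cdh1-Tg they were 1929 and 1878, and Ovol2a/2b-Tg had 1218 and 1061. The fibroblast markers (Col1a1, Col1a2, Thy1, Acta2, Lum) summed to 47.4 and 37.0 in WT, 20.9 and 17.8 in Ovol3KO, 124.7 and 145.4 in Ovol2KO and 317.7 and 335.6 in TKO, while Cdh1-Tg had 328.6 and 350.3 and Ovol2a/2b-Tg 246.6 and 209.5. The germ cell markers were 114.7 and 111.8 in WT, 337.9 and 322.8 in Ovol3KO, 70.0 and 42.5 in Ovol2KO and 36.9 and 42.9 in TKO, while each Cdh1-Tg library had 88.2 and Ovol2a/2b-Tg 71.7 and 91.7. Dusp6 was called lower than in WT in Ovol3KO, Ovol2KO and Ovol2a/2b-Tg. The part of these cells in its values, and in those of the other members, was not tested in any line.

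The ligands differed between the same lines. Of all genes, 4.34% were called higher and 8.50% lower in Ovol3KO, 4.11% and 4.07% in Ovol2KO, and 5.58% and 4.95% in TKO. In Ovol2a/2b-Tg 4.68% were called higher and 2.95% lower, and in Cdh1-Tg 5.56% and 4.30%. These shares stand beside all list counts in this paragraph and the next. In Ovol3KO PGCLC 1 of 8 was higher and 4 lower: Fgf8 was 53.8 and 32.7 TPM against 185.2 and 253.2 in WT (-2.34 ± 0.22), and Fgf4 was 59.9 and 79.4 against 14.0 and 13.4 (2.25 ± 0.24). In Ovol2KO 3 were higher and 1 lower, with Fgf3 at 63.3 and 69.3 TPM against 10.2 and 8.17 (2.73 ± 0.39) and Fgf15 at 36.6 and 46.2 against 11.7 and 11.5 (1.74 ± 0.19). TKO had the same counts, with Fgf3 at 64.8 and 73.7 TPM (2.79 ± 0.39), and Fgf5 listed at 0 in both libraries. In Ovol2a/2b-Tg 0 were higher and 5 lower, among them Fgf17 (-1.60 ± 0.13) and Fgf8 (-1.22 ± 0.22), and in Cdh1-Tg 3 were higher and 2 lower, with Fgf3 at 1.92 ± 0.39 and Fgf5 at -3.01 ± 0.35. Of the 5 receptors Fgfr2 was higher in Ovol2KO (1.70 ± 0.29), TKO (1.75 ± 0.29) and Ovol3KO (1.54 ± 0.29). In Ovol2a/2b-Tg it was higher by 1.53 ± 0.29 and in Cdh1-Tg by 1.43 ± 0.29. Ovol2b-Tg (2.13 ± 0.29) and Ovol2a-Tg (1.21 ± 0.29) also had more Fgfr2. Of 18 cascade genes the kinase scaffold Ksr1 was higher in Ovol2KO (2.06 ± 0.24), TKO (2.14 ± 0.24) and Ovol2b-Tg (2.10 ± 0.24). It was also higher in Cdh1-Tg (2.13 ± 0.24) and Ovol2a/2b-Tg (1.05 ± 0.24). The adaptor Gab1 was higher in Ovol3KO (2.21 ± 0.14).

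Of the 14 other feedback genes, 0 were higher and 2 lower in Ovol3KO (Dusp2 -2.57 ± 0.21, Dusp5 -1.21 ± 0.23), 0 higher and 2 lower in Ovol2KO (Spred3 -1.51 ± 0.18, Dusp5 -1.12 ± 0.23), and 1 higher and 3 lower in TKO (Dusp2 1.04 ± 0.21, Spred3 -1.65 ± 0.18, Dusp1 -1.15 ± 0.31, Dusp14 -1.03 ± 0.16). Ovol2a/2b-Tg had 1 higher (Dusp9 1.19 ± 0.13) and 4 lower, led by Dusp1 (-3.18 ± 0.31), and Cdh1-Tg 0 higher and 3 lower, led by the same gene (-2.40 ± 0.31). Of 18 ERK-responsive genes 0 were higher and 7 lower in Ovol3KO, led by T (-3.65 ± 0.35) and Fos (-3.07 ± 0.41). Ovol2a/2b-Tg also had 0 higher and 7 lower, led by Fos (-6.34 ± 0.41) and Egr1 (-6.18 ± 0.27), and Cdh1-Tg had 2 higher and 6 lower, led by the same genes (-4.99 ± 0.41 and -4.34 ± 0.27). In Ovol2KO 2 were higher and 3 lower, and in TKO 3 higher and 2 lower, with Myc highest in both (1.75 ± 0.18 and 2.20 ± 0.18). The median of this list was -0.81 in Ovol3KO, -0.72 in Ovol2a/2b-Tg, -0.14 in Cdh1-Tg, 0.11 in Ovol2KO and -0.21 in TKO, against -0.12, 0.03, 0.06, 0.04 and 0.03 for all genes.

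**Figure D3:**
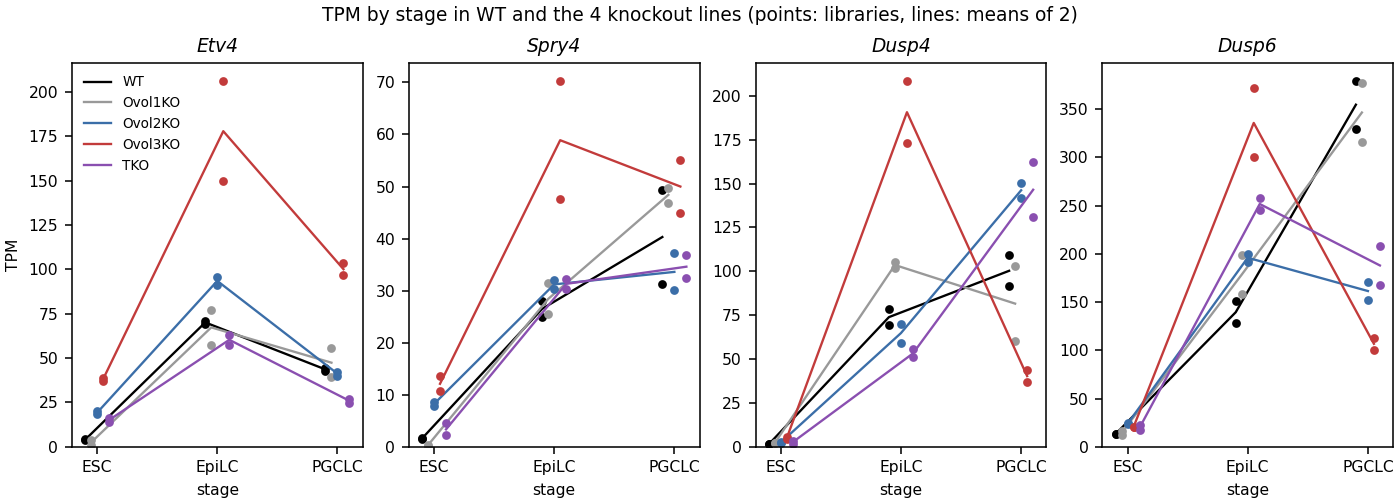
TPM (linear axis from 0) of Etv4, Spry4, Dusp4 and Dusp6 by stage in WT and the 4 knockout lines, with points for libraries and lines through the mean of 2. Dusp4 and Dusp6 of Ovol3KO are above WT in EpiLC and below it in PGCLC, and Dusp6 of Ovol2KO and TKO crosses WT as well.

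Several lines changed sides of WT between EpiLC and PGCLC, and in the 4 knockout lines this difference was tested directly as the effect of a line in PGCLC minus its effect in EpiLC. Both libraries of Dusp6 lay above both WT libraries in EpiLC and below both in PGCLC in 6 of the 8 lines: Ovol2KO, Ovol3KO, TKO, Ovol2a-Tg, Ovol2b-Tg and Cdh1-Tg. In the 3 transgenic lines among them Dusp6 was 220.9 and 205.5 (Ovol2a-Tg), 221.5 and 216.7 (Ovol2b-Tg) and 202.9 and 207.5 TPM (Cdh1-Tg) in EpiLC, and the difference between stages was not tested. All lines are set against the same WT libraries. In PGCLC, WT had the highest Dusp6 mean of the 27 groups (354.5 TPM). In EpiLC the WT mean (139.4 TPM) was above that of Ovol2a/2b-Tg alone (120.5). How many of all genes change sides in this way was not counted. In the knockout lines the change was -2.98 ± 0.19 in Ovol3KO (limma adjusted p = 2.23e-14), -1.77 ± 0.19 in TKO (limma adjusted p = 9.16e-09) and -1.62 ± 0.19 in Ovol2KO (limma adjusted p = 9.01e-08). In EpiLC, TKO had 245.8 and 257.5 TPM of Dusp6 and Ovol2KO 200.1 and 191.8, above the WT values of 128.0 and 150.8, though short of a call. Dusp4 changed by -2.64 ± 0.28 in Ovol3KO (limma adjusted p = 3.61e-09). In TKO it changed the other way, by 1.0 ± 0.28 (limma adjusted p = 0.00909), from 55.5 and 51.0 TPM in EpiLC to 162.4 and 130.7 in PGCLC; this call was lost with quantile scaling (0.96), in limma-voom (0.92) and without single libraries (0.85 to 0.95). Of the 9 genes, 2 were called lower in Ovol3KO (11.2% of all genes), 1 lower in Ovol2KO (4.25%), and 1 higher (4.24%) and 1 lower (5.17%) in TKO. Ovol1KO had 0 calls by limma (0.576% of all genes in either direction), 2 of its 9 values had an unadjusted p under 0.05, and limma-voom called 0.

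In PGCLC the transgenic lines were also set against TKO, since the labels do not name their background. Of 36 differences 0 were called by limma, 13 had an unadjusted p under 0.05 and 8 an adjusted one, and limma-voom called 0. Those 8 were 6 of 9 members in Ovol2a/2b-Tg (37.3% of all genes) and 2 of 9 in Ovol2a-Tg (15.5%), with 0 in Ovol2b-Tg (1.19%) and Cdh1-Tg (19.0%). In either direction 2.30% of all genes were called in Cdh1-Tg, 8.37% in Ovol2a/2b-Tg, 0.354% in Ovol2b-Tg and 3.29% in Ovol2a-Tg. The nearest to a call was Etv1 in Ovol2a-Tg, at 17.6 and 13.3 TPM against 6.78 and 8.88 in TKO (0.89 ± 0.19). It was called without the second TKO library (1.07) and without the second Ovol2a-Tg library (1.08), and Dusp4 in Ovol2a/2b-Tg (-0.83 ± 0.20) was called without the first library of that line (-1.07). TKO against Ovol2KO gave 1 call (0.714% of all genes called higher), Spry1 at 16.2 and 15.0 against 6.98 and 6.84 TPM (1.06 ± 0.20, limma adjusted p = 0.00469).

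No difference of Etv5 from WT reached the size required for a call. They ran from -0.16 in Ovol2KO PGCLC to 0.80 ± 0.08 in Ovol3KO PGCLC (limma adjusted p = 1.54e-06), where the libraries did not overlap WT. The 411 tested genes of chromosome 16 had a median log2 difference of 0.30 to 0.56 in Ovol1KO, TKO and the 4 transgenic lines at each stage. In those same lines Etv5 differed by 0.02 to 0.65, for example 0.54 ± 0.08 in Ovol1KO PGCLC and 0.40 ± 0.06 in TKO EpiLC. The part of the chromosome in these values was not tested. In Ovol3KO the median of chromosome 16 was -0.18 in PGCLC (-0.12 for all genes), where Etv5 had its highest difference.

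**Figure D4:**
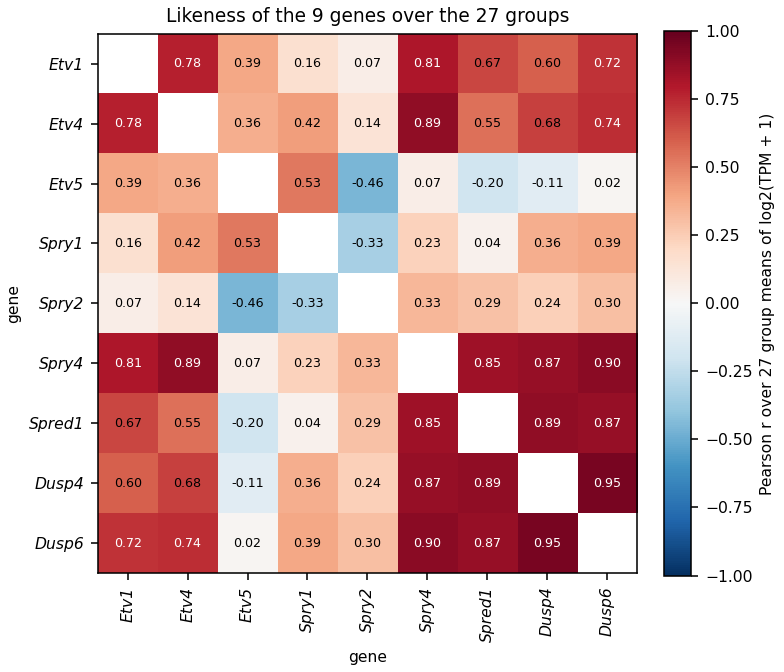
Pearson r between each pair of genes over the 27 group means of log2(TPM + 1). Dusp4, Dusp6, Spry4 and Spred1 form a block of r from 0.85 to 0.95, and Etv5 and Spry2 have r near or below 0 with several of the others.

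Over the 27 group means the members did not vary as 1 unit. The highest r was 0.95 between Dusp4 and Dusp6, followed by 0.90 between Spry4 and Dusp6. Etv4 with Spry4 and Spred1 with Dusp4 each had 0.89. The median over 36 pairs was 0.39, with 32 above 0. The lowest was -0.46, between Etv5 and Spry2. These points share stages, and within a stage (9 lines) the order was in part another. In ESC Etv4 and Spry4 had r = 0.97 and Etv1 and Spry1 -0.95, and in EpiLC Spry1 and Dusp4 had 0.96. In PGCLC Spred1 and Dusp4 had 0.83, Etv5 and Spry1 0.82, and Etv4 and Spred1 -0.89.

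The genes with the most similar course over the 27 groups, among 11486 that are no members and whose means ranged over at least 1 on the log2 scale, were led for Dusp6 by Pcbp4 (r = 0.97) and Zyx (0.96), which encodes the adhesion protein zyxin. For Dusp4 they were Speg (0.97) and Nsmf (0.96), for Spred1 Ttyh3 and Tdg (0.97 each), and for Spry4 Ppp2r1b (0.92). Etv1 was closest to Dut and N6amt2 (0.91 each), Etv4 to Sf3b3 (0.90), Etv5 to Rasip1 (0.90) and Tex11 (0.89), and Spry1 to Fam3c and Mrpl57 (0.89 each). Spry2 had the weakest partners, Muc1 (0.80) and Rab6b (0.78).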

How the data were processed

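RNA prepared with an RNeasy Micro kit was selected for poly(A) and made into NEBNext directional libraries with 12 PCR cycles, per the labels' protocols. The build mm10 and the tools HISAT2, featureCounts and edgeR are named without versions, per the submitters' processing notes, and how strand was counted is not stated there. TPM values were deposited by the authors, and each library sums to 1000000, so they are shares of the mRNA. Groups come from the sample titles; in 8 libraries (Ovol2a-Tg PGCLC and all of Cdh1-Tg) the cell type tag differs from the title. For Ovol2b-Tg EpiLC the columns fix the group only. Nothing says that the 2 libraries of a group are separate cultures, so p-values measure the spread between these libraries, which may be technical.

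Tests used limma 3.58.1 (R 4.3.3; trend, robust) on log2(TPM + 1), which understates changes of scarce genes, for 14416 genes that reached TPM 1 in 2 or more libraries; all 9 members passed. Lines were compared in fits within a stage (18 libraries, 9 residual degrees of freedom), and stages and stage-by-line differences in 1 fit of all 54 (27 degrees of freedom). The script was tested on simulated data. Whole reads were recovered for 17973 of the 17973 genes above 0 (tolerance 0.05 reads) and tested with limma-voom, an alternative chosen after seeing the data. Chromosomes of 13740 genes came from RefSeq names, and positions from GENCODE (GRCm38). Named genes are all members, up to 4 called genes per pathway list and comparison by size, 2 most similar genes per member, and the targeted genes; a few genes that this rule names are not reported here. Members and lists were chosen with earlier results of these data known. Python 3.11.15 and pandas 2.3.3 made the tables.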

Additional observations from a re-analysis of the deposited data

Results flagged for a closer look

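In the 4 knockout lines, a difference of a line's effect between d2 PGCLC and EpiLC was called for 2 of the 9 genes. The difference was tested directly by limma over all genes, with an adjusted p under 0.05 and a size of at least 1 required. In either direction 16.1% of all genes were called in Ovol3KO, 9.41% in TKO, 7.71% in Ovol2KO and 0.576% in Ovol1KO. For Dusp6 the effect against WT was lower in PGCLC than in EpiLC by the log2 values -1.62 in Ovol2KO, -2.98 in Ovol3KO and -1.77 in TKO, and in each of these lines both libraries lay above both WT libraries in EpiLC and below both in PGCLC. For Dusp4 the difference was -2.64 in Ovol3KO and 1.0 in TKO. Of these 5 values, that of Dusp4 in TKO is the 1 that lost its call under other settings. Without the size required, 2 of 9 members in Ovol2KO had a limma adjusted p under 0.05 (16.4% of all genes). Ovol3KO had 4 (39.0%), TKO 4 (21.2%) and Ovol1KO 0 (1.13%). Besides Dusp4 and Dusp6, these were Etv5 (0.82) and Spry4 (-0.77) in Ovol3KO. In TKO they were Spry1 (0.73) and Spry2 (-0.83), and in Ovol2KO Spry2 (-0.58). The 4 transgenic lines were not tested in this way, and the values that follow are untested. In 10 cases both of their libraries lay on one side of both WT libraries in EpiLC and on the other in PGCLC, and the effect in PGCLC minus that in EpiLC is given on the log2 scale. For Dusp6 it was -1.44 in Cdh1-Tg, -1.47 in Ovol2b-Tg and -1.06 in Ovol2a-Tg. For Dusp4 it was 2.27 in Cdh1-Tg and 0.75 in Ovol2b-Tg. For the others it was -1.13 (Etv1), 1.30 (Spry1) and -0.77 (Spry2) in Cdh1-Tg, and -0.54 (Etv1) and -0.96 (Spry4) in Ovol2a/2b-Tg. All these cases use the same WT libraries, and how many of all genes change sides in this way was not counted.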

How the results depend on the processing

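Over the 324 differences of the 9 genes in 36 comparisons, 53 were called. Direction was compared only where the reported fit or the other setting made a call, and none was reversed there. Dropping the filter, dropping the trend and robust shrinkage, fitting other sets of libraries, and averaging the Ovol2b-Tg EpiLC pair changed 0 calls. A pseudocount of 0.1 added 2, quantile scaling lost 2 and added 1, and limma-voom lost 2 and added 6. Replicate numbers are shared names only: over 325 pairs of groups same-numbered deviations had r of -0.21 to 0.20 (median -0.00), and the fit with the replicate block kept 53 of the 53 calls and added 0. Leaving out 1 library in turn lost 10 calls and added 11 in at least 1 case each, and gave 6 to 7 member calls for WT EpiLC against ESC, 2 to 3 for PGCLC against EpiLC and 6 to 6 for PGCLC against ESC. It gave 17 to 20 for the lines in ESC, 5 to 7 in EpiLC and 7 to 8 in PGCLC, 0 to 1 for the transgenic lines against TKO, 1 to 1 for TKO against Ovol2KO and 4 to 6 for stage by line. Depth limits Spry4, Etv4 and Dusp4 in ESC, where libraries held as few as 2, 3 and 5 reads.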
